A study of Mus musculus with 3 samples.

Results

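The subject is the apolipoproteins, the proteins that wrap and steer lipoprotein particles, in livers of male mice that lack apolipoprotein E. Every probe set whose annotated gene symbol was Apoa1, Apoa2, Apoa4, Apob, Apoc1, Apoc2, Apoc3, Apoe, Apoh or Apom was taken, and each probe set was kept separately. That gave 12 of the 12488 probe sets of the array, for 9 of the 10 genes, since no probe set carries the symbol Apoc3 in the annotation used. Apoc3 was not analysed here.

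All 3 groups were homozygous apoE knockout male mice of a C57BL/6JxOLA129 background, fed for 12 weeks from an age of 3 months. The t10,c12-CLA group (9 mice assigned) and the c9,t11-CLA group (10 mice) received a diet with 1.0% by weight of that isomer of conjugated linoleic acid, a linoleic acid with conjugated double bonds. The control group (10 mice) received 1.0% linoleic acid instead. The title of the control sample names no diet, and its array was taken as the control diet because the design text lists these 3 diets and the other titles name the CLA isomers. By the design text the diets were semi-purified with fat at 30% of energy, whereas the sample descriptions speak of a western diet. Liver RNA was measured on 1 Affymetrix array per diet, and no source used here says whether an array held 1 liver or a pool. Wild-type livers were not used here.

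Apolipoproteins are secreted mainly by hepatocytes and the gut. Apolipoprotein A-I is the scaffold of high-density lipoprotein (HDL), apolipoprotein B is the structural protein of very-low-density and low-density lipoproteins, and the small C proteins move between particles and set how fast lipase and receptors act on them. Apolipoprotein E is the ligand by which the liver takes up remnant particles, and mice without it accumulate remnants in plasma.

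Values are MAS5 signals, linear hybridisation intensities whose trimmed mean is the same on the 3 arrays. A log2 difference is the log2 of one array's signal over another's, and 2-fold, a log2 difference of 1, was the size used for counting. A signal was treated as measured above a floor of 490.3, the pooled median of all signals. With 1 array per diet no difference has a replicate check, no test between diets was possible, and the number of arrays limits the precision. The only repeat in the data is a second probe set of the same gene. Over all genes with such pairs, the SD of a single log2 difference was 0.40 for t10,c12-CLA against control (566 pairs), 0.49 for c9,t11-CLA against control (529 pairs) and 0.50 for t10,c12-CLA against c9,t11-CLA (553 pairs). This SD reflects measurement error and differences between probes, and it leaves out variation between mice.

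The livers carried hepatocyte markers, with 11 of 12 listed genes on the array and all 11 above the floor on every array, while the 4 bile duct markers on the array lay below it on every array. The c9,t11-CLA array differed from the others among the very brightest probe sets. The brightest 1% (125 probe sets) hold 4 of the apolipoprotein probe sets, those of Apoa4, Apoc1, Apoc2 and Apoh, and there the median log2 difference was -0.01 for t10,c12-CLA against control, 0.47 for c9,t11-CLA against control and -0.46 for t10,c12-CLA against c9,t11-CLA. The brightest 5% (622 probe sets) hold 7, adding Apoa1, Apoa2 and Apob, and there the medians in the same order were -0.09, 0.02 and -0.12. Over all measured probe sets they were -0.01, 0.03 and -0.05. In a piece of tissue, fewer cells of a type and less RNA per cell cannot be told apart.

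Of the 12 apolipoprotein probe sets, 9 were above the floor on all 3 arrays, 1 for each gene. The remaining 3 were second probe sets of Apoa2, Apoe and Apom. Among the 9, the signal was highest on the c9,t11-CLA array for 6 (Apoa1, Apoa2, Apoa4, Apob, Apoc1 and Apoe), on control for 2 (Apoh and Apom) and on t10,c12-CLA for Apoc2 alone. It was lowest on the t10,c12-CLA array for 4 (Apoc1, Apoe, Apoh and Apom), on control for 4 (Apoa1, Apoa2, Apoa4 and Apob) and on c9,t11-CLA for Apoc2. Under at least 1 other scaling Apob, Apoc1 and Apoe were no longer highest on c9,t11-CLA, Apob was no longer lowest on control and Apoh was no longer lowest on t10,c12-CLA.

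**Figure D1:**
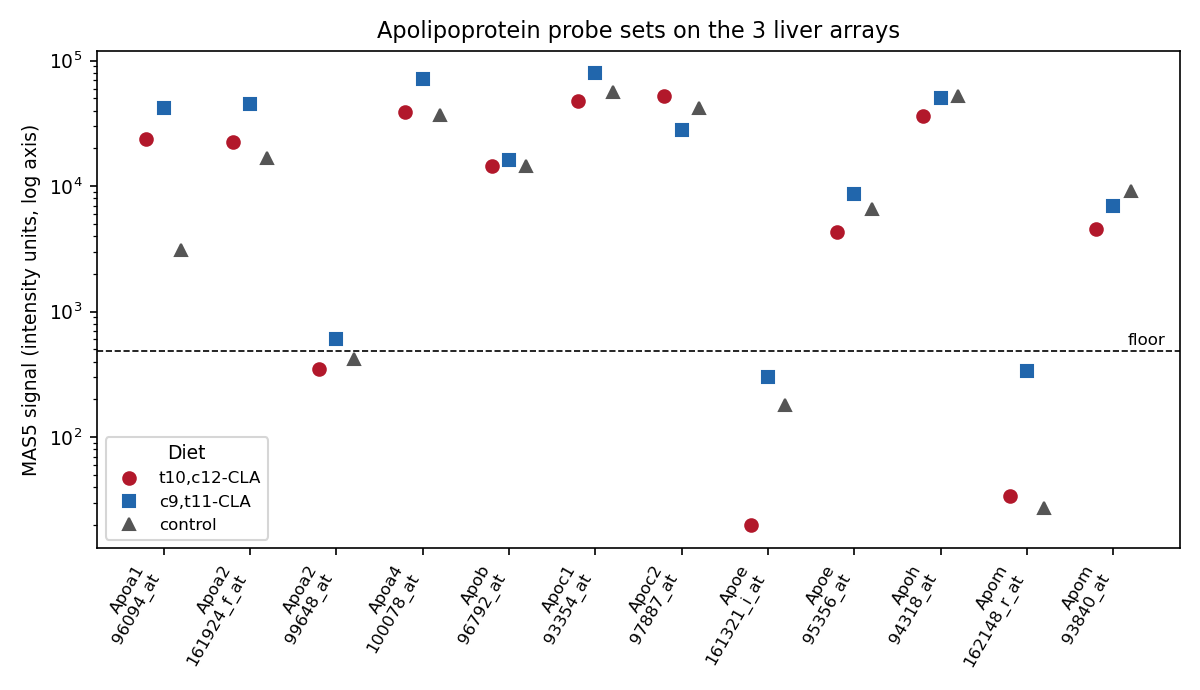
MAS5 signal (log axis) of each apolipoprotein probe set on the t10,c12-CLA (circles), c9,t11-CLA (squares) and control (triangles) arrays, 1 array per diet, with the floor of 490.3 as a dashed line. The control signal of Apoa1, 3110.5, stands far below its signals on both CLA arrays, and the second probe sets of Apoe and Apom lie under the floor on all 3 arrays, that of Apoa2 on 2.

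Apoe is the disrupted gene of this strain. Its probe set 95356_at gave 4287.5 on t10,c12-CLA, 8695 on c9,t11-CLA and 6570.3 on control. A second probe set, 161321_i_at, lay below the floor on every array, at 19.8, 301.9 and 181.1 in the same order of arrays. No source used here says where 95356_at lies relative to the disruption, so the signals are no check of the genotype. They are the signals of a transcript region in a knockout and say nothing of apolipoprotein E protein.

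Upstream sequence is shown for Apoa1, which had the largest differences, for Apoa4, its neighbour across Apoc3 on chromosome 9, for Apoa2, the second HDL protein, and for Apom, which was lowest on t10,c12-CLA. Each is the 250 bases before an annotated transcript start, written 5′ to 3′ on the gene's strand, from RefSeq on GRCm38.p6. The window of Apoa1 is chr9:46228380-46228629, that of Apoa4 chr9:46240594-46240843 and that of Apoa2 chr1:171221314-171221563, all on the plus strand, and that of Apom is chr17:35131802-35132051 on the minus strand.
Apoa1: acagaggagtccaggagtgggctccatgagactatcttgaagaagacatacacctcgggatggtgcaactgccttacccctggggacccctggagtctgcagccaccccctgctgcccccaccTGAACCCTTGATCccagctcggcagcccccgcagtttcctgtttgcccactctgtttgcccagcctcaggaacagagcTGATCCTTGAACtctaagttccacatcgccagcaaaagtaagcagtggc
Apoa4: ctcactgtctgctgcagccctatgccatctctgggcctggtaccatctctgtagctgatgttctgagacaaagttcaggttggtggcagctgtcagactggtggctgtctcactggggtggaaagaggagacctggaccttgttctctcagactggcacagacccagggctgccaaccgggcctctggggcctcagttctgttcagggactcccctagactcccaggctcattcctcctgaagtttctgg
Apoa2: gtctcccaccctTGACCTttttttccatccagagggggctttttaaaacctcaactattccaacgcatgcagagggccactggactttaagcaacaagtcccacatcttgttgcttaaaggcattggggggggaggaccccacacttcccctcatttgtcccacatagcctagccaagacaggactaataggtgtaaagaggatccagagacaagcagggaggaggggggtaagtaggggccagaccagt
Apom: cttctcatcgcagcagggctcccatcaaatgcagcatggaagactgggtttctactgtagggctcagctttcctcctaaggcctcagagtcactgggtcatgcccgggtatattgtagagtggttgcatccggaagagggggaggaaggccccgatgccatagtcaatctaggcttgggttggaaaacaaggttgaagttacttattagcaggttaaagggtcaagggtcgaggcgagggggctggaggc
Capitals mark matches, on either strand, to the motifs searched. They were the nuclear receptor core AGGTCA, the HNF4A-type site CAAAGTCCA, the HNF1-type site (GTTAAT and ATTAA with 1 base between), TATAAA, and TGANC repeated in the same direction with 2 or 3 bases between. No 2 matches in the windows shown overlap. The repeats were added after the Apoa1 sequence had been read, so their presence there is no finding.

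Of the 10 genes, 8 had an upstream window in the RefSeq table, 11 windows in all, and Apoc1 and Apoc3 had none. In the window of Apoa1, the repeat with 3 bases between matched 127 to 115 bases before the start and the repeat with 2 bases between 49 to 38 bases before it. Of all 32851 windows of this length in the table, 0.889% held the first and 1.01% the second. Neither was found in a window of another member. The core AGGTCA was in 1 window each of Apoa2, Apoc2 and Apoh, against 14.0% of all windows. TATAAA was in 1 window each of Apoa2 (another start than the one shown), Apob and Apoe, against 12.4% of all windows. The windows shown for Apoa4 and Apom held none of these letters. The matches are descriptions of the sequence, not sites bound in these livers.

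The HDL proteins Apoa1 and Apoa2 come first. Apoa1 was far brighter on both CLA arrays than on the control array. The probe set 96094_at gave 23579.5 on t10,c12-CLA and 41605.5 on c9,t11-CLA, against 3110.5 on control. The signal was 7.58-fold higher on t10,c12-CLA and 13.4-fold higher on c9,t11-CLA than on control, log2 differences of 2.92 and 3.74. Both comparisons rest on the same control array, so a single low signal enters both. Among measured probe sets these ranked 3 of 5584 and 1 of 5480 from the highest. Counted from the brightest within each array, the probe set stood at rank 214 on t10,c12-CLA, 117 on c9,t11-CLA and 1677 on control, of 12422 probe sets without array controls. Between the isomers the log2 difference was -0.82, lower on t10,c12-CLA, within 2-fold. A second probe set of Apoa1 was not among those analysed here.

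Apoa2, which shares HDL with Apoa1, gave 22432.9 on t10,c12-CLA and 45445.9 on c9,t11-CLA, against 16881.6 on control, by probe set 161924_f_at. The log2 difference was 0.41 for t10,c12-CLA against control and 1.43, 2.69-fold higher, for c9,t11-CLA against control. The isomers differed by a log2 difference of -1.02, 2.03-fold lower on t10,c12-CLA. The letter code in this identifier marks possible cross-hybridisation within a sequence family. The unmarked probe set 99648_at stood near the floor, at 347.2 on t10,c12-CLA, 607.1 on c9,t11-CLA and 422.9 on control. Only its c9,t11-CLA signal was above the floor, at least 1.24-fold higher there than on either other array. Both probe sets were highest on c9,t11-CLA, and the order of the other arrays cannot be read from signals below the floor.

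Apom, the HDL protein that carries sphingosine-1-phosphate, was lower on both CLA arrays than on control. Its probe set 93840_at gave 4540.1 on t10,c12-CLA and 6960.4 on c9,t11-CLA, against 9092.2 on control. The log2 difference was -1.002 for t10,c12-CLA, at 2.003-fold just past the counting size, and -0.39 for c9,t11-CLA. Between the isomers it was -0.62, lower on t10,c12-CLA. The second probe set, 162148_r_at, was below the floor on all 3 arrays, at 34.1, 338.8 and 27.2 in the order t10,c12-CLA, c9,t11-CLA and control. So of these 3 proteins, Apoa1 and Apoa2 were higher and Apom lower on both CLA arrays than on the control array. However, the Apoa2 difference on t10,c12-CLA, 0.41, was about the size of the probe-set SD of 0.40. The Apom difference on c9,t11-CLA, -0.39, was smaller in size than the SD of 0.49. Apoa4, which is also found on HDL, is described below.

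Among the proteins of triglyceride-rich particles, Apob, the non-exchangeable protein of hepatic very-low-density lipoprotein, gave 14422.4 on t10,c12-CLA, 16139.3 on c9,t11-CLA and 14359.7 on control. Its log2 differences were 0.01 for t10,c12-CLA and 0.17 for c9,t11-CLA against control, and -0.16 between the isomers, and each changed its sign under at least 1 other scaling. All 3 lie well inside the probe-set SD, and with 1 array per diet a true difference of that size was not detectable.

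Apoa4, a protein of chylomicrons and HDL that mouse liver makes besides the intestine, gave 39113.6 on t10,c12-CLA, 71488.7 on c9,t11-CLA and 36735.1 on control. The c9,t11-CLA array stood above the other two, with a log2 difference of 0.96 against control, 1.95-fold and so just inside the counting size. For t10,c12-CLA the log2 difference was 0.09 against control and -0.87 against c9,t11-CLA. Of the intestinal epithelium markers, 5 of 7 were on the array. Lct, Slc5a1 and Vil1 lay below the floor on every array. Fabp6 was above it on both CLA arrays only. Fabp2, which encodes the intestinal fatty acid binding protein, gave 5518.1 on t10,c12-CLA, 2682 on c9,t11-CLA and 5022.1 on control. The summed signal of the 5 genes was 6244.5, 3973 and 5440.2 in the same order, most of it from Fabp2. Fabp6, the ileal bile acid binding protein, gave 577.4, 837.5 and 153.6, and the part of intestinal RNA in the Apoa4 signal was not tested.

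The C proteins differed from each other. Apoc1, a small protein that slows the receptor uptake of remnants, gave 48017.7 on t10,c12-CLA, 79262.1 on c9,t11-CLA and 56115.6 on control. Its log2 difference was -0.22 for t10,c12-CLA against control, 0.50 for c9,t11-CLA against control and -0.72 between the isomers. Apoc2, the activator that lipoprotein lipase needs, ran the other way. It gave 52463.2 on t10,c12-CLA, 27936.3 on c9,t11-CLA and 41589.4 on control, with log2 differences of 0.34 and -0.57 against control. Between the isomers the Apoc2 log2 difference was 0.91, 1.88-fold higher on t10,c12-CLA, and it was the only 1 of the 9 that was higher there. The direction of Apoc1 on c9,t11-CLA depended on the scaling, since after quantile normalization its log2 difference against control was -0.18. The 3 log2 differences of Apoc2 kept their signs under every alternative tried.

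Apoe and Apoh, the other plasma glycoproteins of the set, were lowest on t10,c12-CLA. For the Apoe signals given above, the log2 difference was -0.62 for t10,c12-CLA against control, 0.40 for c9,t11-CLA against control and -1.02, 2.03-fold lower, for t10,c12-CLA against c9,t11-CLA. The c9,t11-CLA difference was -0.07 after the median of hepatocyte secreted proteins was subtracted. Macrophages also express Apoe, Apoc1 and Apoc2. Of 13 listed Kupffer cell and macrophage markers, 12 were on the array, and Marco was below the floor on every array. Their summed signal was 108699 on t10,c12-CLA, 68607.8 on c9,t11-CLA and 82081.8 on control. Sums and counts are at the brightest probe set of each marker. Among 11 measured markers, 10 were higher on t10,c12-CLA than on control, with a median log2 difference of 0.38. On c9,t11-CLA 5 were higher and 6 lower than on control, with a median of -0.15. Between the isomers 10 were higher on t10,c12-CLA, with a median of 0.73. Second probe sets of C1qb and Csf1r went the other way on t10,c12-CLA against control, at -0.47 and -0.17, beside 0.27 and 0.78 at the brightest. That of C1qb also did so on c9,t11-CLA against control, at 0.36, and between the isomers, at -0.83. The part of macrophage RNA in the signals of Apoe, Apoc1 and Apoc2 was not tested.

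Apoh, beta-2-glycoprotein I, which binds anionic phospholipids, gave 36427.6 on t10,c12-CLA, 50014 on c9,t11-CLA and 52554.4 on control. The log2 difference was -0.53 for t10,c12-CLA and -0.07 for c9,t11-CLA against control. Between the isomers it was -0.46, a value that lies at the median of the brightest 1% of probe sets in that comparison, also -0.46, and that was 0.12 after the median of hepatocyte secreted proteins was subtracted.

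**Figure D2:**
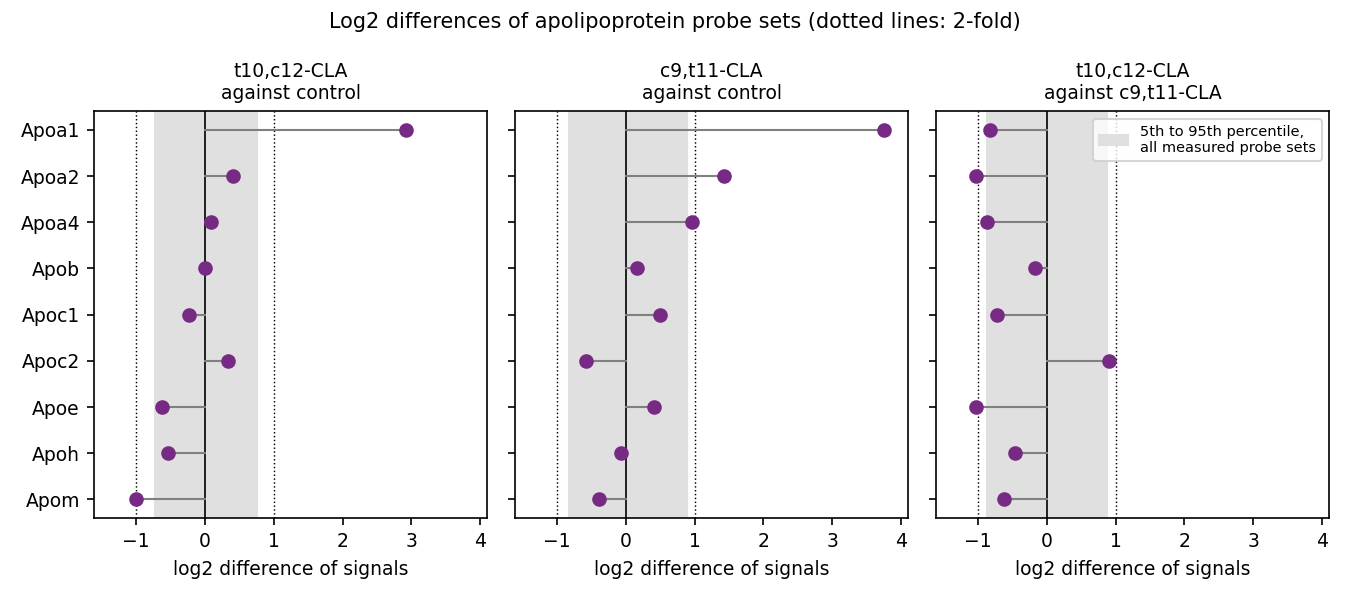
Log2 difference of the signals of the 9 apolipoprotein probe sets above the floor on all arrays, for t10,c12-CLA against control, c9,t11-CLA against control and t10,c12-CLA against c9,t11-CLA; positive values are higher on the array named first. The grey band spans the 5th to 95th percentile of all measured probe sets, and Apoa1, at 2.92 and 3.74 against control, lies far outside it on both CLA arrays.

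Counted over the 9 measured probe sets, 1 was past 2-fold higher (Apoa1) and 1 past 2-fold lower (Apom) for t10,c12-CLA against control. Over all 5584 measured probe sets the shares were 2.18% higher and 1.9% lower. For c9,t11-CLA against control 2 were past 2-fold higher (Apoa1 and Apoa2) and none lower, beside 3.25% and 2.81% of 5480. For t10,c12-CLA against c9,t11-CLA none was past 2-fold higher and 2 were past 2-fold lower (Apoa2 and Apoe), beside 3.47% and 2.73% of 5567. With 9 probe sets, a count of 1 or 2 was not read as differing from these shares. Among the brightest 1% of all probe sets 11.2% were past 2-fold higher on c9,t11-CLA than on control, and 8.8% were past 2-fold lower on t10,c12-CLA than on c9,t11-CLA. None was past 2-fold the opposite way there, and this band holds no member counted past 2-fold. Among the brightest 5%, which hold Apoa1 and Apoa2, these shares were 4.98% and 5.95%, with 3.54% and 3.22% the opposite way. For t10,c12-CLA against control the brightest 5% had 2.73% higher and 2.41% lower, and the brightest 1% had 0.8% each way. Apoe and Apom are in neither band.

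The median log2 difference of the 9 was 0.01 for t10,c12-CLA against control, with 5 above 0 and 4 below. It was 0.40 for c9,t11-CLA against control, with 6 above and 3 below, beside 0.47 for the brightest 1% of probe sets and 0.02 for the brightest 5%. Between the isomers it was -0.72, with 1 above and 8 below, beside -0.46 for the brightest 1% and -0.12 for the brightest 5%. After quantile normalization, which gives the 3 arrays the same spread of signals, the isomer median was -0.32. The Apoa1 log2 difference against control was between 3.27 and 3.82 on c9,t11-CLA and between 2.83 and 3.04 on t10,c12-CLA over every alternative.

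**Figure D3:**
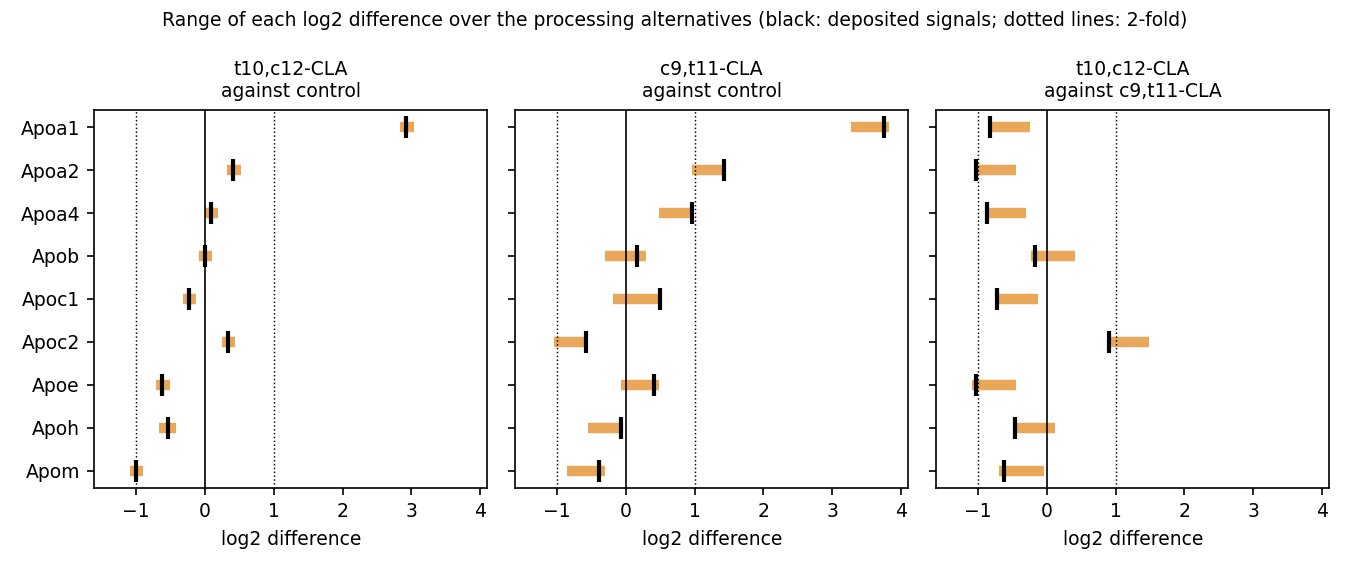
For each apolipoprotein probe set, the log2 difference from the deposited signals (black mark) and its range over 8 other ways of processing (orange bar; 7 ways for Apoa2) in the 3 comparisons. Apoa1 stays past 2-fold against control in both left panels, while the bars of Apoa2, Apoc2, Apoe and Apom reach across a 2-fold line in at least 1 panel.

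The apolipoprotein genes lie in groups on the mouse chromosomes. On chromosome 9 the RefSeq order is Apoa1, Apoc3, Apoa4 and Apoa5 as neighbouring protein-coding genes. Against control, the log2 differences on t10,c12-CLA were 2.92 for Apoa1, 0.09 for Apoa4 and -0.31 for Apoa5, a regulator of plasma triglyceride. On c9,t11-CLA they were 3.74, 0.96 and -0.53. The 3 measured genes of this group therefore differed widely, with Apoa1 alone past 2-fold. Apoa5 had 3 probe sets, which disagreed on c9,t11-CLA, the others standing at 0.58 and -0.02. On chromosome 7 Apoc2, Apoc4, Apoc1 and Apoe follow each other. On t10,c12-CLA their log2 differences against control were 0.34, 0.26, -0.22 and -0.62, and on c9,t11-CLA -0.57, 0.72, 0.50 and 0.40. Apoc4, a minor C protein, gave 40251.9 on t10,c12-CLA, 55470.8 on c9,t11-CLA and 33660.9 on control. None of the 4 was past 2-fold against control.

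The genes around the apolipoproteins were read in 7 related lists, at the brightest probe set of each gene. On the gene scale the background past 2-fold was 2.05% higher and 1.87% lower for t10,c12-CLA against control, 2.98% and 2.78% for c9,t11-CLA against control, and 3.47% and 2.56% for t10,c12-CLA against c9,t11-CLA. The HDL maturation list, of enzymes and transporters that load and remodel HDL, had no gene past 2-fold in any of the 3 comparisons. Its median log2 difference was -0.10 over 10 measured genes for t10,c12-CLA and -0.53 for c9,t11-CLA against control, with 8 and 7 of the 10 below 0. Lcat, the enzyme that esterifies cholesterol on HDL with Apoa1 as its activator, gave 19171.3 on t10,c12-CLA and 19869 on c9,t11-CLA, against 30190.5 on control. Pon1, the paraoxonase carried by HDL, gave 22961.9 and 28178.5 on these CLA arrays, against 42124.8 on control. Both were thus lower on the CLA arrays, by log2 differences of -0.66 and -0.88 on t10,c12-CLA and -0.60 and -0.58 on c9,t11-CLA. Abca1, the transporter that lipidates apolipoprotein A-I, had log2 differences of -0.03 and -0.26, and was named after its values were seen.

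The list of lipoprotein assembly and secretion had a median of -0.01 over 9 genes for t10,c12-CLA and -0.19 over 10 genes for c9,t11-CLA against control. For t10,c12-CLA against control 1 gene was past 2-fold lower, Pdia3, a protein disulfide isomerase of the endoplasmic reticulum, at -1.16. Between the isomers Hspa5, an endoplasmic reticulum chaperone, stood at -1.05. The brightest members were Cideb, a lipid droplet protein that aids the lipidation of very-low-density lipoprotein, at 0.06 on t10,c12-CLA and 0.38 on c9,t11-CLA, and Surf4, a cargo receptor for lipoprotein export, at 0.63 and -0.21. Mttp, which loads lipid onto apolipoprotein B and was named after its values were seen, gave 474.6 on t10,c12-CLA, below the floor, 769.4 on c9,t11-CLA and 859.7 on control.

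Receptors and lipases had a median of 0.10 for t10,c12-CLA and 0.29 for c9,t11-CLA against control over 7 genes, none past 2-fold. Lrp1, a remnant receptor, stood at 0.10 and 0.40, and Lsr, the lipolysis-stimulated receptor, at 0.41 and 0.29. Of the genes for editing of the Apob transcript only Apobec1, the editing enzyme, and Hnrnpab were measured, with log2 differences within 0.37 in size.

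The list of other apolipoproteins and lipid-binding plasma proteins had medians of -0.06 for t10,c12-CLA and 0.36 for c9,t11-CLA against control over 9 genes. Saa2, an acute-phase protein that rides on HDL, was past 2-fold on c9,t11-CLA at 1.63, and stood at 0.56 on t10,c12-CLA and -1.07 between the isomers. Saa3 stood at -1.34 between the isomers. The hepatocyte secreted proteins had medians of -0.11 for t10,c12-CLA and 0.47 for c9,t11-CLA against control and of -0.57 between the isomers over 23 genes. For c9,t11-CLA against control 4 of them were past 2-fold higher and none lower. For t10,c12-CLA against control none was past 2-fold higher and 2 were lower, and between the isomers 1 was higher and 5 were lower. These counts hold at the brightest probe set of each gene. In each comparison the list also held a gene with a second probe set past 2-fold where the brightest was not. The c9,t11-CLA median of this list, 0.47, was 0.28 with equal medians, 0.11 with the lowess curve and -0.04 after quantile normalization. The apolipoprotein median of 0.40 was 0.21, 0.20 and 0.29 under the same scalings. Hepatocyte markers, of which 4 are also in that list, had a median of 0.66 on c9,t11-CLA and 0.12 on t10,c12-CLA against control, with 10 and 6 of 11 above 0, and their part in the apolipoprotein differences was not tested.

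**Figure D4:**
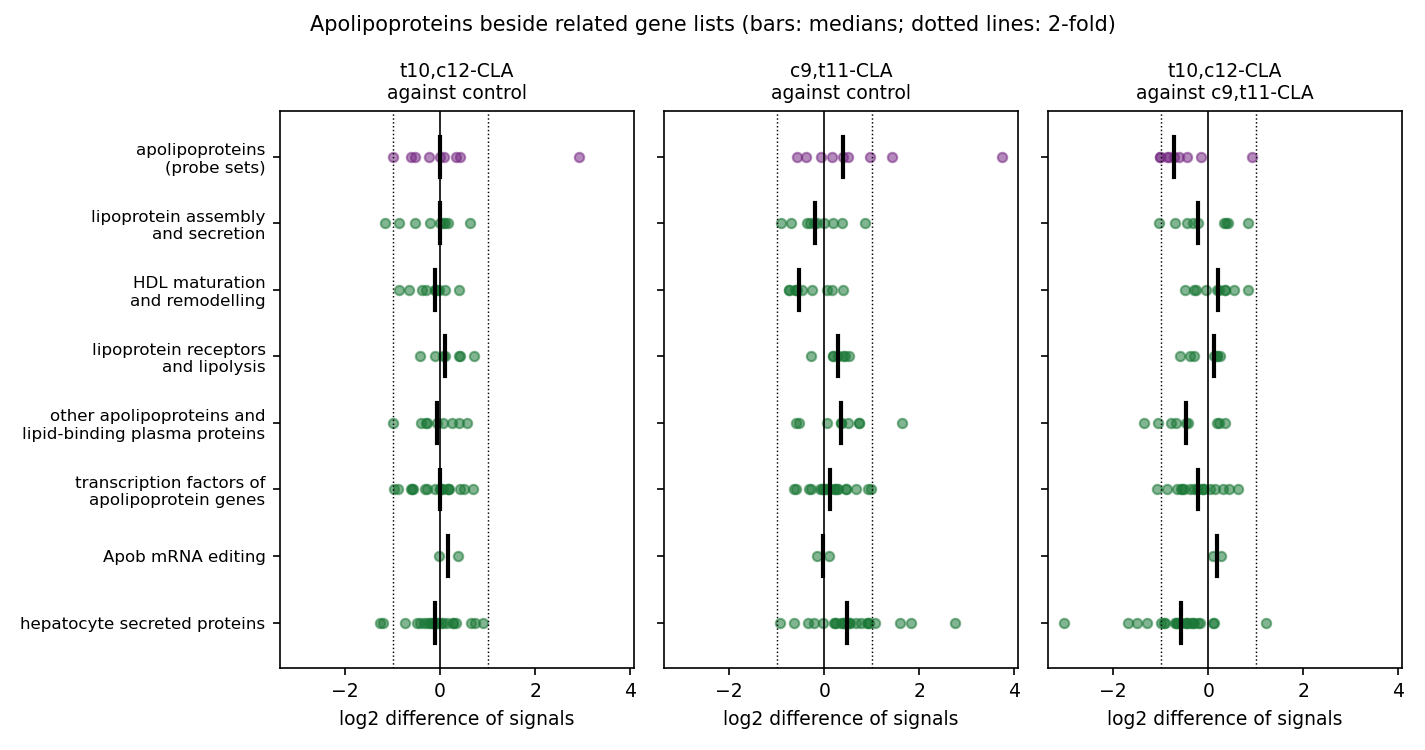
Log2 differences of the 9 apolipoprotein probe sets (purple) and of the measured genes of 7 related lists (green), each point a probe set or gene and each black bar the median, for the 3 comparisons. On c9,t11-CLA the medians of the apolipoproteins, 0.40, and of hepatocyte secreted proteins, 0.47, are both above 0 (the second is -0.04 after quantile normalization), and that of HDL maturation genes lies at -0.53.

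Transcription factors known to act on apolipoprotein genes had medians of -0.01 over 18 genes for t10,c12-CLA and 0.11 over 19 genes for c9,t11-CLA against control. At the brightest probe set of each gene, none was past 2-fold against control. The brightest, Cebpa and Cebpb, liver-enriched leucine zipper factors, stood at -0.10 and 0.68 on t10,c12-CLA and at 0.04 and 0.99 on c9,t11-CLA. Hnf4a, a nuclear receptor that drives Apoa1 among many hepatocyte genes, was named after its values were seen. It gave 1780.7 on t10,c12-CLA and 2529.4 on c9,t11-CLA, against 1327.5 on control, log2 differences of 0.42 and 0.93. Its part in the Apoa1 signals was not tested. Of the measured factors of this list, 9 were higher and 9 lower on t10,c12-CLA than on control. On c9,t11-CLA 12 were higher and 7 lower. Between the isomers the forkhead factor Foxa2 stood at -1.09. At the brightest probe sets it was the only gene of this list past 2-fold in any comparison. Second probe sets of Rxra and Esrra did pass 2-fold against control. That of Rxra stood at 1.03 on t10,c12-CLA, beside 0.49 at the brightest. That of Esrra stood at 1.0002 on c9,t11-CLA, just past the counting size, beside 0.03 at the brightest.

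The genes whose pattern was most like that of Apoa1 were sought among 4154 genes above the floor on all 3 arrays. Likeness was the Euclidean distance over the 2 log2 differences against control, which share the control array. The nearest was Cyp2e1, the ethanol-inducible cytochrome P450, at a distance of 0.77, with log2 differences of 2.15 on t10,c12-CLA and 3.69 on c9,t11-CLA. It was followed by Gadd45g, a growth arrest gene, at 1.00, with 3.34 and 2.83, and a control signal of 507.5 just above the floor. Cyp2b10, a drug-inducible cytochrome P450, at 1.89, Myh9, a non-muscle myosin, at 1.94 and Igfbp1, an insulin-like growth factor binding protein, at 2.13 came next.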

How the data were processed

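Liver RNA of apoE knockout male mice was measured on 3 Affymetrix mouse arrays, 1 per diet. Biotinylated cRNA was made from 8 µg of total RNA, per the labels' protocols, and the deposited intensity values came from MAS5, per the submitters' processing notes; no version is named there. The deposited signals had a 2%-trimmed mean of 1501 on each array. Above the floor lay 6214 probe sets for t10,c12-CLA, 6443 for c9,t11-CLA and 6074 for control, and detection calls were not used here.

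Symbols came from the platform annotation, updated through the Entrez identifier in a RefSeq table of GRCm38.p6. Of 12422 probe sets that are not array controls, 10833 had 1 symbol, 396 several and 1193 none, and the last 2 kinds were not named. For the related lists and the cell type markers, the brightest probe set by mean log2 signal stood for each of 8251 genes.

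Signals were used without further scaling, and log2 differences were taken over all probe sets. Named were all probe sets of the members, list genes past 2-fold in any comparison and otherwise the 2 brightest per list, and the 5 genes nearest to a member past 2-fold on both CLA arrays. From the hepatocyte secreted proteins, whose genes past 2-fold are many, only counts are given. The members and lists were chosen with earlier results of these data known. The alternatives were equal medians, quantile normalization, centring by a lowess curve on mean signal, floors at the 25th and 75th percentile, a pseudocount of 50, leaving out probe sets with a letter code, and averaging the probe sets of a gene. Subtracting the median of the hepatocyte secreted proteins, and the background of the brightest 1% of probe sets, were chosen after seeing the data. Counting past 2-fold was checked on simulated data, in which every planted difference was larger than the counting size. That check does not cover calls that lie close to 2-fold, such as those of Apom and Apoe. Python 3.11.15, numpy 2.4.6, pandas 2.3.3, statsmodels 0.14.6 and matplotlib 3.10.9 were used.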

Additional observations from a re-analysis of the deposited data

Results flagged for a closer look

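For 3 apolipoproteins the log2 differences against control had opposite signs on the CLA arrays, and the difference was not tested, since each diet had 1 array and both comparisons share the control array. Apoc1 stood at -0.22 on t10,c12-CLA and 0.50 on c9,t11-CLA. Apoc2 stood at 0.34 on t10,c12-CLA and -0.57 on c9,t11-CLA. Apoe stood at -0.62 on t10,c12-CLA and 0.40 on c9,t11-CLA. The probe-set SD of a single log2 difference was 0.40 on t10,c12-CLA and 0.49 on c9,t11-CLA, so the Apoc1 and Apoc2 values on t10,c12-CLA and the Apoe value on c9,t11-CLA were smaller than 1 such SD. On c9,t11-CLA the sign of Apoc1 turned after quantile normalization, to -0.18, and that of Apoe after the median of the hepatocyte secreted proteins was subtracted, to -0.07.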

How the results depend on the processing

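No paired analysis was possible because each diet had 1 array. Against control, Apoa1 stayed past 2-fold in every alternative on both CLA arrays. Between the isomers its log2 difference of -0.82 was -0.25 after subtracting the median of the hepatocyte secreted proteins. That subtraction, chosen after seeing the data, moved the medians of the 9 apolipoproteins to -0.066 for c9,t11-CLA against control and -0.15 between the isomers. For c9,t11-CLA against control the median of 0.40 was 0.21 with equal medians and 0.20 with the lowess curve. Between the isomers the median of -0.72 was -0.32 after quantile normalization and -0.47 with the lowess curve.

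For t10,c12-CLA against control the count past 2-fold lower, 1 (Apom), was 0 after quantile normalization, with the lowess curve, with the pseudocount and after the subtraction, where Apom stood at -0.99, -0.98, -0.99 and -0.90. For c9,t11-CLA against control the count past 2-fold higher, 2, was 1 without probe sets that carry a letter code, because the Apoa2 probe set is one of them, and 1 after the subtraction (Apoa2 at 0.96); the count lower, 0, was then 1 (Apoc2 at -1.04). Between the isomers the count higher, 0, was 1 with equal medians, quantile normalization, the lowess curve and the subtraction (Apoc2 at 1.01, 1.16, 1.22 and 1.48). The count lower, 2, was 0 with equal medians and after the subtraction, and 1 after quantile normalization, with the lowess curve and without letter codes. Over single probe sets, 201 of 213 values moved by less than the probe-set SD and 12 by more. This tally is no measure of robustness. Other floors and leaving out letter codes cannot move a single log2 difference, and those values are among the 201. The subtraction takes the list median of -0.57 from every isomer value, more in size than the SD of 0.50. Each isomer value after the subtraction is therefore among the 12. No difference past 2-fold changed its sign.

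Equal medians shifted the median of all measured probe sets to -0.09 for t10,c12-CLA and -0.14 for c9,t11-CLA against control. Each value is limited by 1 array per diet, the second probe sets of Apoe and Apom by signals under the floor on all arrays, and that of Apoa2 by signals under it on 2.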
